A study of Mus musculus with 60 samples.

Results

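Chlorthalidone was compared with its solvent in R1 mouse embryonic stem cells, an established line derived from the mouse blastocyst. The comparison consists of 6 of the 60 arrays in the series: 3 arrays from cells given 1 mM chlorthalidone in 0.1% DMSO for 6 h, and 3 arrays from cells given 0.1% DMSO alone for 6 h. They were chosen by the treatment label alone, with no measured value used. All groups of the series share this 1 cell line, the exposure time and the solvent, so no array shows the cells without DMSO. The cells were grown on feeder cells, separated from them before the experiment and treated while attached and undifferentiated. The labels class chlorthalidone as a non-teratogen, and they describe each dose as the lowest of a mildly toxic concentration, the solubility limit and 1 mM. Hydrochlorothiazide (labelled non-teratogen) and topiramate (labelled teratogen) served as further comparisons, each on 3 arrays at 1 mM in 0.1% DMSO for 6 h. A last comparison was the mean of the other 18 compounds of the series, on 54 arrays. These 18 include hydrochlorothiazide and topiramate, and their doses differ, up to 1 mM.

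Chlorthalidone is a thiazide-like diuretic. It carries a benzenesulfonamide group, as the thiazides do, but lacks the fused benzothiadiazine ring of hydrochlorothiazide. Its therapeutic target is the sodium chloride cotransporter Slc12a3 of the kidney tubule, and its sulfonamide binds the zinc of carbonic anhydrases, the enzymes that hydrate carbon dioxide. Topiramate is a sulfamate anticonvulsant that also inhibits carbonic anhydrases. Cells short of amino acids, or with stressed endoplasmic reticulum, phosphorylate the initiation factor eIF2 and translate the transcription factor ATF4, which raises genes of amino acid import and synthesis. The transcription factors TFEB and TFE3 raise genes of lysosomes. Embryonic stem cells hold a naive state through Nanog, Esrrb and related factors, and genes such as Otx2 and Fgf5 mark the formative and primed states that follow it.

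Each value is a deposited log2 signal of a probe set, the group of probes that reports 1 transcript region, so a difference of 1 is a change of 2-fold. Levels of different probe sets are not comparable with each other. All 10 embryonic stem cell markers had a mean over the 6 arrays above the average array median. Their mean level was 12.26 to 12.29 on the chlorthalidone arrays and 12.30 to 12.33 on the DMSO arrays, ranges that did not overlap, with Nanog alone called, lower, and a median difference of -0.09. The mean of 18 feeder fibroblast markers was 8.87 to 8.93 on chlorthalidone arrays and 8.89 to 8.95 on DMSO arrays, with none called. Of these 18 markers, 13 also had a mean above the average array median. The mean of 19 markers of early differentiated cells was 8.33 to 8.38 on chlorthalidone arrays and 8.36 to 8.44 on DMSO arrays, with Pax6 alone called. Of these 19 markers, 9 had a mean above the average array median. The root mean square difference of a pair of arrays was 0.123 (median) within chlorthalidone, 0.145 within DMSO and 0.159 between both groups. The interquartile range of an array was 2.86 to 2.93 with chlorthalidone and 2.82 to 3.02 with DMSO. In cultures, RNA per cell and the make-up of the population cannot be told apart.

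Chlorthalidone changed 562 of the 21789 probe sets tested, which is 2.58%, at an adjusted p under 0.05 (limma over all 60 arrays, Benjamini-Hochberg). Of these, 313 rose (1.44%) and 249 fell (1.14%). The changes were small: the median called rise was 0.30 and the median called fall was -0.29 on the log2 scale, against a median of 0.003 over all probe sets tested. Only 26 of the called probe sets passed a change of 1.5-fold, 19 of them higher and 7 lower, and 2 passed 2-fold, both higher. The 3 chlorthalidone arrays lay wholly above or below the 3 DMSO arrays in 558 of the 562, while 20% of all probe sets tested showed such a separation. The count was 936 after quantile normalisation and 861 with the interquartile range of an array as a covariate. It was 194 when the 6 arrays were fitted alone, and it lay between 319 and 436 when each of the 6 arrays was left out in turn: 319 without chlorthalidone replicate 2, 361 without chlorthalidone replicate 3, and 353 or 343 when DMSO replicate 1 or 3 was dropped. The share that rose was 71.1% with DMSO replicate 3 left out and 45.4% with DMSO replicate 2 left out.

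**Figure D1:**
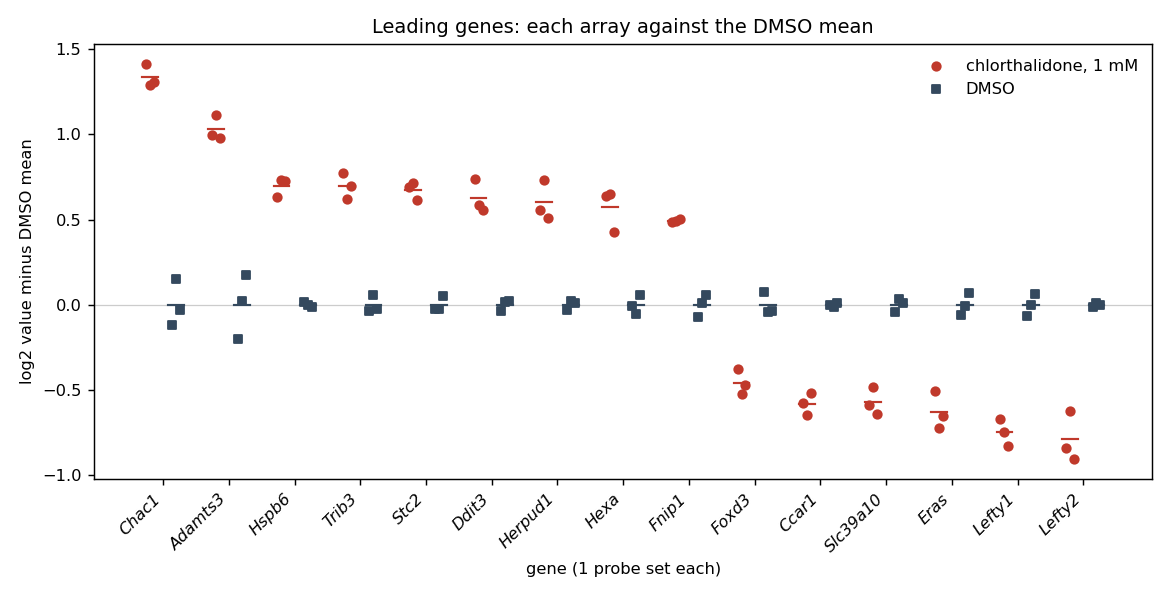
Values of 15 leading genes on each array, given as the log2 value minus the mean of the DMSO arrays. Red circles are the 3 chlorthalidone arrays, dark squares the 3 DMSO arrays, and short lines the group means. In each of the 15 genes the arrays of both groups are apart, from Chac1 at the left, higher by 1.34, to Lefty2 at the right, lower by 0.79. For the largest rises and falls among them, no overlap was a condition of the choice.

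The largest rise belonged to Chac1, an enzyme that degrades glutathione and a known target of ATF4. Its log2 values were 10.52, 10.39 and 10.41 with chlorthalidone, against 8.99, 9.25 and 9.07 with DMSO. The difference was 1.34 ± 0.084 (SE), a rise of 2.53-fold, with an adjusted p of 2.29e-16. All 3 chlorthalidone arrays lay more than 1 log2 unit above every DMSO array. Chac1 led a group of 27 measured genes of the ATF4 and amino acid response, of which 15 rose, none fell and 12 were not called. Across all probe sets 1.44% rose. The median difference of the 27 genes was 0.23, and 25 of them lay above 0.

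Promoter stretches of Chac1 and Trib3 are shown because their 2 genes led this group and both windows hold the core of the element to which ATF4 binds, TGATGNAA (either strand, N any base). The RefSeq windows run from 250 bases before the transcript start to 50 after it. Capitals mark the match, which reads as the reverse complement in both.
Chac1 (GRCm38.p6, chr2:119351019-119351086, plus strand, bases -223 to -156 from the start): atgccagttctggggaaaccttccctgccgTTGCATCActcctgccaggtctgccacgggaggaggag
Trib3 (GRCm38.p6, chr2:152344031-152344076, minus strand, bases -16 to 30): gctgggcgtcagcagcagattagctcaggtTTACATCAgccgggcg
Of the 24 genes of the list with a window, 6 held this motif, 5 of them among the 14 that rose and 1 among the 10 that were not called. It occurred in 4.51% of all 27025 genes with a window. A match is only a description of the letters.

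The members that rose had several roles. Among the regulators, Trib3, a pseudokinase induced by ATF4, had 9.24, 9.09 and 9.17 with chlorthalidone, against 8.43, 8.53 and 8.45 with DMSO, a rise of 0.70 ± 0.068 (adjusted p = 8.54e-10). Ddit3, which encodes the stress factor CHOP, had 8.91, 8.76 and 8.73 with chlorthalidone, against 8.14, 8.19 and 8.20 with DMSO, a rise of 0.63 ± 0.090. The RNA of Atf4 itself, singled out after its values were seen, had 9.04, 8.92 and 8.99 with chlorthalidone, against 8.45, 8.50 and 8.49 with DMSO, a rise of 0.51. In all 3 regulators the groups did not overlap, which the choice of Trib3 and Ddit3 among the largest rises required.

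Stc2, a secreted glycoprotein of the stress response, had 9.05, 9.08 and 8.97 with chlorthalidone, against 8.34, 8.34 and 8.41 with DMSO, a rise of 0.67 ± 0.053 with an adjusted p of 5.69e-13. Amino acid carriers formed a further set. Slc6a9, the glycine transporter GlyT1, had 9.62, 9.67 and 9.52 with chlorthalidone, against 8.98, 8.98 and 8.91 with DMSO, a rise of 0.65. Slc7a1, which imports arginine and lysine, had 10.32, 10.28 and 10.21 with chlorthalidone, against 9.60, 9.70 and 9.61 with DMSO, a rise of 0.63. These carriers, too, separated on every array, as the choice of the largest rises required.

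Slc1a4 and Pck2, which the list does not hold, were also among the 15 largest rises. Slc1a4, a carrier of alanine and serine, had 9.58, 9.68 and 9.58 with chlorthalidone, against 8.90, 9.03 and 9.05 with DMSO, a rise of 0.62. Pck2, the mitochondrial phosphoenolpyruvate carboxykinase, had 9.53, 9.56 and 9.56 with chlorthalidone, against 8.93, 8.94 and 8.95 with DMSO, a rise of 0.62. Over the 20 group means of the series, the probe sets most like Chac1 by Pearson correlation were Trib3 (0.97), Pck2 (0.97), Mthfd2 (0.96), Cars (0.95) and Slc1a4 (0.94). These correlations describe means that share arrays and processing. Cars, the cysteinyl-tRNA synthetase, was the single gene called among 16 aminoacyl-tRNA synthetases, with a rise of 0.33 (adjusted p = 4.6e-05). Of all probe sets 1.44% rose.

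**Figure D2:**
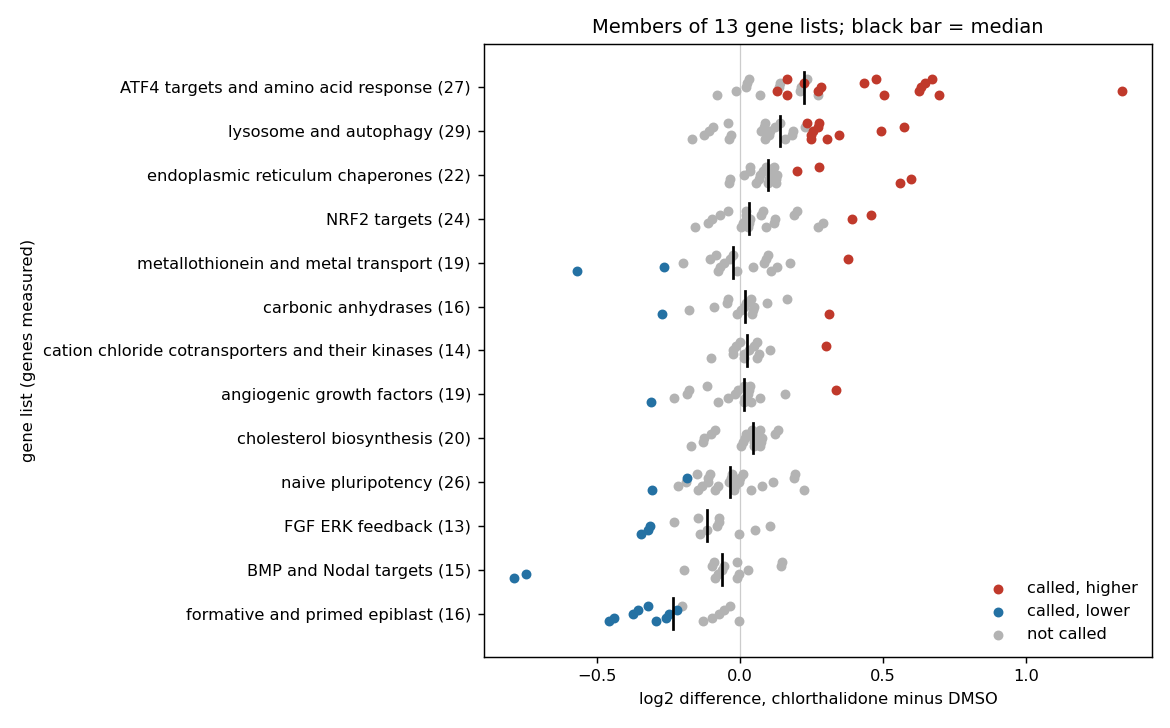
Log2 difference, chlorthalidone minus DMSO, of the measured members of 13 gene lists, with the number of members in parentheses. Each point is a gene by its brightest probe set, red where it was called higher, blue where it was called lower and grey where it was not called, and the black bar is the list's median. The ATF4 list reaches 1.34 at its upper end, and every point of the formative and primed list lies below 0.

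Of 22 genes of endoplasmic reticulum chaperones and degradation, 4 rose, none fell and 18 were not called, with a median of 0.10. The share of all probe sets that rose was 1.44%. Herpud1, which links the reticulum membrane to the degradation of misfolded proteins, had 10.08, 10.26 and 10.03 with chlorthalidone, against 9.49, 9.55 and 9.53 with DMSO, a rise of 0.60 ± 0.074 (adjusted p = 1.82e-07). Derl3, a channel component of the same degradation route, had 9.53, 9.61 and 9.57 with chlorthalidone, against 9.00, 8.95 and 9.08 with DMSO, a rise of 0.56. Dnajc3 rose by 0.28 and Sdf2l1 by 0.20. These last rises stood closer to the threshold: the call on Dnajc3 was lost without chlorthalidone replicate 3, where its rise was 0.18, and without either of DMSO replicates 1 and 2, and that on Sdf2l1 without any 1 of the 6 arrays. The 4 rises of the list became 2 without chlorthalidone replicate 3 or DMSO replicate 1 or 2, and 7 after quantile normalisation.

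The chaperone most used as a marker of reticulum stress, Hspa5, named here after its value was seen, was not called: it was higher by 0.13 with an adjusted p of 0.19. Windows of Derl3 and Dnajc3 are shown because, of the 4 genes that rose, they hold the full endoplasmic reticulum stress element, CCAAT and CCACG with 9 bases of any kind between them (either strand), marked in capitals.
Derl3 (GRCm38.p6, chr10:75893212-75893290, plus strand, bases -186 to -108): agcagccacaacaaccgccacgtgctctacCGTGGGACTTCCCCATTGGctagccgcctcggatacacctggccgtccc
Dnajc3 (GRCm38.p6, chr14:118937797-118937875, plus strand, bases -135 to -57): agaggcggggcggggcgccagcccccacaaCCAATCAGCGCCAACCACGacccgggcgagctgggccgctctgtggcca
The element stood in 2 of the 4 genes with a window that rose and in 6 of the 15 that were not called. It stood in 0.137% of all genes with a window.

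Of 29 genes of lysosomes and autophagy, 10 rose, none fell and 19 were not called, while 1.44% of all probe sets rose. Their median difference was 0.14, and 22 of the 29 lay above 0. Hexa, the alpha subunit of the lysosomal hexosaminidase, had 10.29, 10.30 and 10.08 with chlorthalidone, against 9.64, 9.60 and 9.70 with DMSO, a rise of 0.57 ± 0.079 (adjusted p = 2.49e-06). Fnip1, a partner of folliculin in nutrient sensing at the lysosome, had 10.33, 10.34 and 10.35 with chlorthalidone, against 9.78, 9.86 and 9.91 with DMSO, a rise of 0.49 ± 0.071. Ctsa, a lysosomal carboxypeptidase, had 11.75, 11.74 and 11.69 with chlorthalidone, against 11.36, 11.40 and 11.37 with DMSO, a rise of 0.35. Mcoln1, the lysosomal calcium channel, rose by 0.31. The arrays of both groups were apart in all 4 genes. The transcription factors themselves, named after their values were seen, were not called: Tfeb was lower by 0.17 (adjusted p = 0.17) and Tfe3 by 0.11 (adjusted p = 0.44).

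The call on Mcoln1 was lost without chlorthalidone replicate 2. The 10 rises of the list became 5 without chlorthalidone replicate 2, 6 without chlorthalidone replicate 1 or 3 or DMSO replicate 2, 7 or 8 without the other arrays and 4 with the 6 arrays alone. The 15 rises of the ATF4 list became 10 to 13 without 1 array and 10 with the 6 arrays alone. Windows of Fnip1, Ctsa and Mcoln1 are printed because they hold CACGTG, the E-box core bound by TFEB and TFE3, as well as by other factors of their class.
Fnip1 (GRCm38.p6, chr11:54438074-54438139, plus strand, bases -105 to -40): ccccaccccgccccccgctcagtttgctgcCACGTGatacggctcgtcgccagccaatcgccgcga
Ctsa (GRCm38.p6, chr2:164833731-164833802, plus strand, bases -42 to 30 of 1 of its 2 starts): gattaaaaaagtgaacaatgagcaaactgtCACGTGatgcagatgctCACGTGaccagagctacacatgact
Mcoln1 (GRCm38.p6, chr8:3500418-3500509, plus strand, bases -101 to -10): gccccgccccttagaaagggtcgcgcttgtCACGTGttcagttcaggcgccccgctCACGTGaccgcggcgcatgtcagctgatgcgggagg
The E-box core was present in 6 of the 10 genes with a window that rose and in 5 of the 15 not called. It was present in 8.09% of all genes with a window. Hexa held none.

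Adamts3 gave the second largest rise. It encodes a secreted metalloproteinase that trims procollagen and processes the growth factor VEGF-C. Its strongest probe set had 7.74, 7.86 and 7.72 with chlorthalidone, against 6.54, 6.77 and 6.92 with DMSO, a rise of 1.03 ± 0.135, or 2.04-fold (adjusted p = 7.85e-07). The gene is covered by 16 probe sets, and in every one the 3 chlorthalidone arrays lay above the 3 DMSO arrays. The differences ran from 0.22 to 1.03, and 12 of the 16 were called. In each of the 16 the chlorthalidone mean was the highest of the 20 groups. Probe sets of a gene report parts of the same transcripts and are not independent samples.

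**Figure D3:**
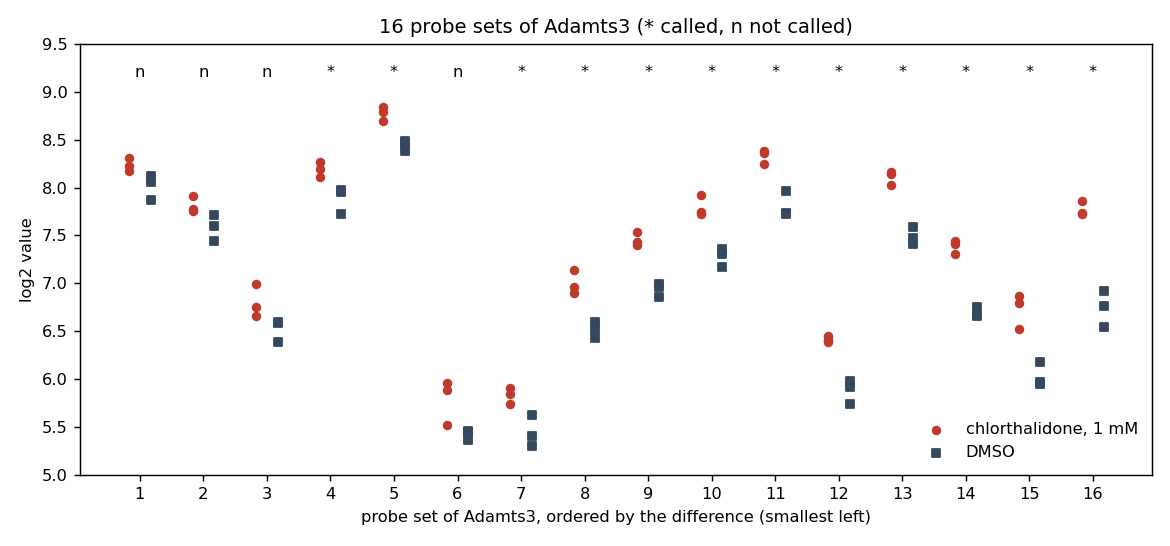
Log2 values of the 16 probe sets of Adamts3, ordered along the x axis by the size of the difference. Red circles are chlorthalidone arrays and dark squares DMSO arrays, with an asterisk above a probe set that was called and an n above one that was not. No probe set shows an overlap of the groups, and the gap grows from 0.22 at the left to 1.03 at the right.

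The remaining large rises were single genes. Ahnak2, a large scaffold protein, had 8.93, 8.63 and 8.86 with chlorthalidone, against 7.92, 7.94 and 8.14 with DMSO, a rise of 0.80, and its second probe set rose by 0.59. Hspb6, a small heat shock protein, had 9.89, 9.99 and 9.98 with chlorthalidone, against 9.28, 9.25 and 9.24 with DMSO, a rise of 0.70. It was the single member of 12 heat shock genes that rose, while Hsph1 fell by 0.18, against 1.44% and 1.14% of all probe sets. The call on Hsph1 was lost without any 1 of the 6 arrays. Rnf157, an E3 ubiquitin ligase, had 8.80, 8.79 and 8.78 with chlorthalidone, against 8.15, 8.17 and 8.17 with DMSO, a rise of 0.63.

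Lefty2 and Lefty1, which gave the largest falls after Nlrp9b, encode secreted inhibitors of Nodal that Nodal signalling itself induces. Lefty2 had 7.44, 7.66 and 7.38 with chlorthalidone, against 8.27, 8.29 and 8.28 with DMSO, a difference of -0.79 ± 0.086 (adjusted p = 8.17e-09). Lefty1 had 8.65, 8.58 and 8.50 with chlorthalidone, against 9.26, 9.32 and 9.39 with DMSO, a difference of -0.75 ± 0.089 (adjusted p = 8.46e-08). The arrays of both groups were far apart in each gene, and no overlap was a condition of their choice. The 2 genes are close paralogs, so a part of their signal may be shared between their probes, which was not tested. They were the only 2 of 15 measured BMP and Nodal genes that were called, and the median of the 15 was -0.06. The share of all probe sets that fell was 1.14%.

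Of 16 genes of the formative and primed epiblast, 9 fell, none rose and 7 were not called. None of the 16 differences lay above 0, and their median was -0.23. Across all probe sets 1.14% fell. Foxd3, a transcription factor of the exit from the naive state, had 9.22, 9.08 and 9.13 with chlorthalidone, against 9.68, 9.56 and 9.56 with DMSO, a difference of -0.46 ± 0.076 (adjusted p = 7.21e-05). Eomes, a T-box factor of the early mesoderm and endoderm, had 7.77, 7.64 and 7.65 with chlorthalidone, against 8.04, 8.07 and 8.27 with DMSO, a difference of -0.44 (adjusted p = 1.5e-05). Sall2, a zinc finger factor, had 7.97, 7.88 and 7.90 with chlorthalidone, against 8.22, 8.22 and 8.44 with DMSO, a difference of -0.37. The DMSO mean of Sall2 (8.29) was the highest of the 20 groups. Otx2, which steers cells towards the primed state, had 9.98, 9.95 and 10.12 with chlorthalidone, against 10.34, 10.30 and 10.47 with DMSO, a difference of -0.35. In all 4 genes no chlorthalidone array reached a DMSO array. The call on Otx2 was lost without DMSO replicate 3, where its difference was -0.31. The 9 calls of the list became 6 to 8 when an array was left out and 3 with the 6 arrays alone.

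Genes of the naive state were mostly not called. Of 26, only Nr5a2 and Nanog fell and none rose, with a median of -0.03, while 1.14% of all probe sets fell. Nr5a2, an orphan receptor that supports Pou5f1 expression, had 10.04, 10.01 and 10.10 with chlorthalidone, against 10.41, 10.19 and 10.47 with DMSO, a difference of -0.31 (adjusted p = 0.00293). Nanog had 12.45 on all 3 chlorthalidone arrays, against 12.65, 12.64 and 12.61 with DMSO, a difference of -0.18 with an adjusted p of 0.0461. The call on Nr5a2 was lost without DMSO replicate 3, and that on Nanog without any 1 of the 6 arrays.

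Of 13 genes induced by FGF and ERK signalling, 3 fell and none rose, with a median of -0.12, while 1.14% of all probe sets fell. Etv1, Etv4 and Egr1, transcription factors at the end of this pathway, differed by -0.34, -0.32 and -0.31. Etv1 had 9.43, 9.36 and 9.55 with chlorthalidone, against 9.78, 9.75 and 9.85 with DMSO. Egr1 had 8.75, 8.75 and 8.76 with chlorthalidone, against 9.12, 9.08 and 9.00 with DMSO. The call on Etv1 was lost without chlorthalidone replicate 2 and that on Etv4 without chlorthalidone replicate 3. Of 23 immediate early genes Egr1 and Myc fell. The difference of Myc was -0.24, and its call was lost without chlorthalidone replicate 2 or 3 or DMSO replicate 1 or 3. No gene of 12 Wnt targets was called, and their median was -0.02.

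Among the remaining 15 largest falls, Nlrp9b, an innate immune receptor of the gut and the oocyte, had 6.49, 6.27 and 6.22 with chlorthalidone, against 7.37, 6.89 and 7.48 with DMSO, a difference of -0.92 ± 0.138. The groups did not overlap, as the choice of the largest falls required, and the spread was wide among the DMSO arrays. Eras, a Ras protein of embryonic stem cells, had 8.72, 8.51 and 8.58 with chlorthalidone, against 9.17, 9.22 and 9.30 with DMSO, a difference of -0.63 (adjusted p = 9.75e-06). Ccar1, a transcriptional coactivator, had 10.64, 10.57 and 10.70 with chlorthalidone, against 11.22, 11.21 and 11.23 with DMSO, a difference of -0.58 (adjusted p = 8.54e-10). Rbbp6, a ubiquitin ligase that binds p53 and Rb, fell in 2 of its 3 probe sets, by 0.60 in the stronger of them. Nova1, a splicing factor of neurons, fell by 0.58, and all 3 probe sets of the zinc finger gene Zfp640 fell by 0.52 to 0.56. Zfp640 belongs to a family of similar zinc finger genes, and 2 of its 3 probe sets lost their calls without chlorthalidone replicate 2 or 3, or without DMSO replicate 1 or 3. Olfr307, Platr8, Rsph4a and Cyp2b23 fell by 0.63, 0.63, 0.50 and 0.49. The call on Rsph4a was lost without DMSO replicate 3.

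The genes of the drug's pharmacology moved little. Slc12a3, its target in the kidney, had 7.45, 7.67 and 7.64 with chlorthalidone, against 7.34, 7.71 and 7.38 with DMSO, and the groups overlapped (0.11 ± 0.098, adjusted p = 0.783). Slc12a1 and Slc12a2, the cotransporters of loop diuretics, differed by 0.02 and 0.06 and were not called. Of 14 genes of this family and its kinases, only Slc12a8 was called, a rise of 0.30 (adjusted p = 0.00785), while 1.44% of all probe sets rose. The call on Slc12a8 was lost without DMSO replicate 1 or 3.

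Of 16 carbonic anhydrases 1 rose and 1 fell, against 1.44% and 1.14% of all probe sets. Car13, a cytosolic enzyme, had 9.41, 9.44 and 9.48 with chlorthalidone, against 9.13, 9.04 and 9.22 with DMSO, a rise of 0.31 (adjusted p = 0.00367). Car3, a cytosolic enzyme of muscle and fat with low activity, had 9.02, 9.01 and 8.89 with chlorthalidone, against 9.33, 9.14 and 9.26 with DMSO, a difference of -0.27 (adjusted p = 0.0479). Car2, the main cytosolic form, had 11.79, 11.76 and 11.73 with chlorthalidone, against 11.98, 11.89 and 11.93 with DMSO. Its arrays were apart but it was not called (-0.18 ± 0.061, adjusted p = 0.123). Car4, Car9, Car12 and Car14, the membrane-bound forms, differed by -0.09, -0.01, 0.04 and 0.04 and were not called. The call on Car3 was lost in 5 of the 6 fits that left out an array, all but the one without DMSO replicate 2. With the 6 arrays alone Car13 had an adjusted p of 0.0586 and no carbonic anhydrase was called in limma.

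Ion and metal handling gave scattered calls. For scale, 1.44% of all probe sets rose and 1.14% fell. Of 20 genes of bicarbonate and proton transport, only Slc9a8, a sodium proton exchanger of the Golgi, was called, a rise of 0.22, and this call was lost in 5 of the 6 fits without an array. Nfat5, the factor of the response to high tonicity, and Sgk1, a kinase of sodium transport, fell by 0.28 and 0.20, as the 2 called members of 9 osmotic genes. The call on Sgk1 was lost without chlorthalidone replicate 2, DMSO replicate 1 or DMSO replicate 3, and that on Nfat5 without any 1 array other than DMSO replicate 2. Slc39a10, a zinc importer, had 10.52, 10.62 and 10.46 with chlorthalidone, against 11.06, 11.14 and 11.11 with DMSO, a difference of -0.57 ± 0.059 (adjusted p = 3.04e-09). The zinc-binding metallothionein Mt1 had 12.35, 12.34 and 12.31 with chlorthalidone, against 11.93, 11.92 and 12.01 with DMSO, a rise of 0.38. Slc30a2, a zinc exporter, fell by 0.26, and the other 16 of the 19 metal genes were not called. The call on Slc30a2 was lost without chlorthalidone replicate 3, DMSO replicate 1 or DMSO replicate 3.

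Among 19 angiogenic growth factor genes, Vegfa had 9.37, 9.31 and 9.42 with chlorthalidone, against 9.03, 9.03 and 9.04 with DMSO, a rise of 0.34 (adjusted p = 0.000305). Vegfc, the substrate of Adamts3, had 7.87, 7.80 and 7.95 with chlorthalidone, against 8.19, 8.08 and 8.27 with DMSO, a difference of -0.31 (adjusted p = 0.0072). Tgfb3 was lower by 0.18 and was not called. In all, 1 of the 19 genes rose and 1 fell, against 1.44% and 1.14% of all probe sets. The call on Vegfc was lost without chlorthalidone replicate 2 or DMSO replicate 3.

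Of 24 genes of the oxidative stress factor NRF2, Hmox1 and Srxn1 rose and none fell. For this and the next counts, the shares over all probe sets were 1.44% risen and 1.14% fallen. Hmox1, the haem-degrading enzyme, had 11.40, 11.46 and 11.35 with chlorthalidone, against 10.99, 10.85 and 10.99 with DMSO, a rise of 0.46 (adjusted p = 3.19e-06). Srxn1, which reduces oxidised peroxiredoxins, rose by 0.39. Cirbp, an RNA-binding protein induced by mild cold, rose by 0.36, as the single call among 3 such genes. Against DMSO, Cirbp was also called with hydrochlorothiazide, higher by 0.29 (limma, adjusted p = 0.0195). Its group means ran from 9.36 with clozapine to 10.19 with loratadine. The DMSO mean, 9.41, stood near the low end, and the chlorthalidone mean was 9.77. None of the 3 genes was called between chlorthalidone and hydrochlorothiazide, topiramate or the mean of the other compounds. Vegfa and Slc2a3 were the 2 calls among 25 genes of hypoxia and glycolysis, and Prc1 was the single call among 24 genes of mitosis. Slc2a3 rose by 0.18 and Prc1 by 0.25. The call on Slc2a3 was lost without chlorthalidone replicate 1 or DMSO replicate 3, and that on Prc1 without chlorthalidone replicate 2 or 3 or DMSO replicate 2. Mt1 and Sgk1 were also the 2 calls among 17 genes of the glucocorticoid and mineralocorticoid response.

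Several large groups had no called member in limma. These were cholesterol synthesis (20 genes, median 0.05), fatty acid synthesis (13, median -0.01), p53 targets (18, median 0.02), xenobiotic metabolism (15, median 0.02), oxidative phosphorylation (30, median -0.02) and the proteasome (25, median -0.02). They also included ribosome biogenesis (28, median -0.04), G1/S and DNA replication (24, median -0.04), histones (10, median -0.05) and small nucleolar and spliceosomal RNA genes and hosts (8, median -0.12). Of the 221 genes of these lists, the Wnt targets and the feeder markers, 23 had an unadjusted p under 0.05, against 2664 of all probe sets tested.

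Chlorthalidone was set against hydrochlorothiazide at the same dose. In this direct contrast, which does not use the DMSO arrays, 1161 probe sets differed (5.33%), of which 974 were higher with chlorthalidone (4.47%) and 187 lower (0.858%). This split varied with the handling of array scale, to an unequal degree, and the reason was not tested. Hydrochlorothiazide arrays had interquartile ranges of 2.65, 2.70 and 2.90, against the 2.86 to 2.93 of chlorthalidone. With the interquartile range as a covariate 431 probe sets differed, 65.9% of them higher in place of 83.9%. After quantile normalisation 1216 differed, 76.6% of them higher. Without hydrochlorothiazide replicate 3 the count was 2898, without replicate 1 it was 302 and without replicate 2 it was 434. It was 637 without chlorthalidone replicate 1 and 555 without chlorthalidone replicate 3.

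In the direct contrast Chac1 averaged 10.44 with chlorthalidone and 9.30 with hydrochlorothiazide, a difference of 1.14 ± 0.084 (adjusted p = 1.29e-13). Of the 27 ATF4 genes 13 were higher with chlorthalidone and none lower. Hexa averaged 10.22 with chlorthalidone and 9.58 with hydrochlorothiazide, and 13 of the 29 lysosomal genes were higher and none lower. Of 22 chaperone genes 11 were higher and none lower. Adamts3 averaged 7.77 with chlorthalidone and 6.81 with hydrochlorothiazide in its strongest probe set, a difference of 0.96. Foxd3 was lower with chlorthalidone by 0.48 (adjusted p = 2.48e-05), and it was the only called gene of the 16 formative and primed genes.

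Lefty2 averaged 7.49 with chlorthalidone and 7.90 with hydrochlorothiazide, a difference of -0.41 (adjusted p = 0.00194). For Eomes the difference from hydrochlorothiazide was -0.10, with a 95% interval of -0.23 to 0.04, and for Sall2 it was -0.07, with an interval of -0.20 to 0.07. No difference between the 2 diuretics was called for Eomes or Sall2. Among the pharmacology genes, Car4 was higher with chlorthalidone than with hydrochlorothiazide by 0.28 (adjusted p = 0.00592). Against DMSO, Car4 was lower by 0.37 with hydrochlorothiazide (limma, adjusted p = 0.00533) and by 0.09 with chlorthalidone, where it was not called. For Slc12a3 the difference from hydrochlorothiazide was -0.02, with an interval of -0.21 to 0.18, and for Car2 it was -0.07, with an interval of -0.19 to 0.06. The largest differences also named genes that did not pass against DMSO. Cisd1, an iron sulfur protein of mitochondria, averaged 11.12 with chlorthalidone and 10.40 with hydrochlorothiazide.

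Topiramate differed from chlorthalidone in 698 probe sets (3.2%), 519 higher with chlorthalidone (2.38%) and 179 lower (0.822%). With the interquartile range as a covariate the share higher was 54.4% in place of 74.4%. The count was 292 without topiramate replicate 3, 399 without topiramate replicate 1, 454 without chlorthalidone replicate 1 and 348 without chlorthalidone replicate 3. Chac1 averaged 10.44 with chlorthalidone and 9.45 with topiramate, a difference of 1.00 ± 0.084. Of the listed groups, 10 ATF4 genes, 10 lysosomal genes and 10 chaperone genes were higher with chlorthalidone, and 8 formative and primed genes were lower. The exception was Tfe3 of the lysosomal list, singled out after its value was seen, which was lower by 0.21 (adjusted p = 0.0216). Lefty2 averaged 7.49 with chlorthalidone and 8.23 with topiramate, a difference of -0.74 (adjusted p = 6.64e-08). Fbxo47, an F-box protein, averaged 7.23 with chlorthalidone and 6.44 with topiramate. For Slc12a3 the difference was -0.03, with an interval of -0.23 to 0.16, and for Car2 it was -0.09, with an interval of -0.21 to 0.04.

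**Figure D4:**
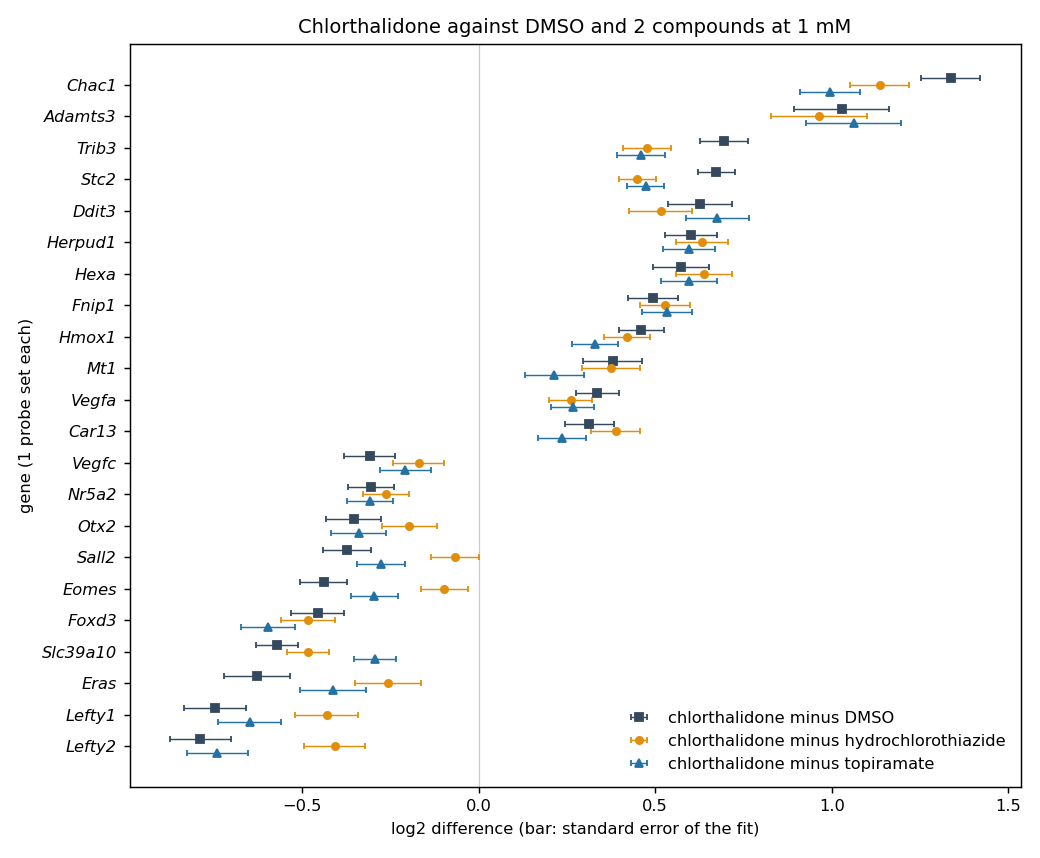
Log2 differences of 22 genes, chlorthalidone minus DMSO (dark squares), minus hydrochlorothiazide (orange circles) and minus topiramate (blue triangles), with the standard error of the fit as a bar. The 3 differences of a gene share the chlorthalidone arrays. For Sall2 and Eomes the orange circles lie near 0, at -0.07 and -0.10, away from their dark squares.

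Set against the mean of the other 18 compounds, chlorthalidone differed in 1019 probe sets (4.68%), of which 352 were higher (1.62%) and 667 lower (3.06%). The split turned with the scaling: 34.5% were higher in the deposited values, 52.9% after quantile normalisation and 56.6% with the interquartile range as a covariate. The count was 484, 326 and 483 without chlorthalidone replicate 1, 2 and 3. Of the listed groups, 11 ATF4 genes, 7 lysosomal genes and 6 chaperone genes were higher and none of them lower. Of 16 formative and primed genes 5 were lower, and of 13 FGF and ERK genes 6. The cholesterol genes, of which none was called against DMSO, had 7 of 20 lower than the mean of the other compounds. Txnip, which binds thioredoxin and restrains glucose uptake, had its lowest group mean with chlorthalidone and differed by -0.47 from the other 18 (adjusted p = 9.95e-12).

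The place of chlorthalidone in the series differed from gene to gene. Doses were not all matched: sulfasalazine and paracetamol were given at 1 mM, as chlorthalidone was, glybenclamide at 0.37 mM and loratadine at 0.043 mM. Chac1 averaged 10.44 ± 0.07 with chlorthalidone (SD, n = 3), against 10.66 ± 0.12 with loratadine, 10.48 ± 0.07 with sulfasalazine and 10.04 ± 0.06 with glybenclamide. Sulfasalazine and chlorthalidone, neighbours in this order, lay within their spread, and glybenclamide lay below it. For some of the rises the DMSO mean stood at the low end of the 20 groups. It ranked 20, the lowest, for Trib3, and 19 for Chac1, Stc2 and Ahnak2. For Ddit3 it ranked 13 and for Hexa 11. Hexa averaged 10.22 ± 0.13 with chlorthalidone, against 10.40 ± 0.04 with loratadine and 10.29 ± 0.08 with clozapine, given at 0.028 mM. Adamts3 averaged 7.77 ± 0.07 with chlorthalidone in its strongest probe set, against 7.33 ± 0.12 with glybenclamide, the next highest group. Lefty2 averaged 7.49 ± 0.15 with chlorthalidone, against 7.62 ± 0.03 with paracetamol and 7.70 ± 0.03 with loratadine, and the chlorthalidone and paracetamol means lay within the spread. Of the 313 probe sets that rose, 57 had their highest group mean with chlorthalidone, and of the 249 that fell, 65 had their lowest. The call itself selects high or low chlorthalidone means, which favours such ranks. The share of all probe sets with such a rank is not given here, so these counts have no scale beside them.

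**Figure D5:**
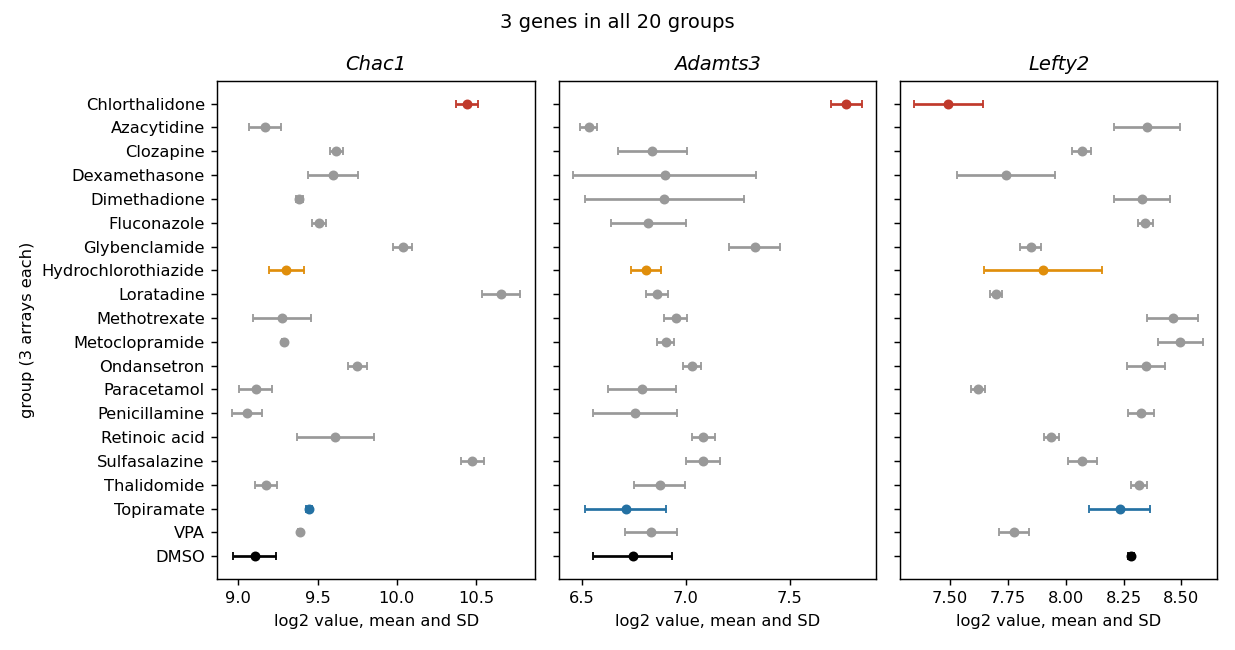
Mean and SD of the 3 arrays of each of the 20 groups for Chac1, the strongest Adamts3 probe set and Lefty2. Chlorthalidone is at the top in red, DMSO at the bottom in black, hydrochlorothiazide in orange and topiramate in blue. Chlorthalidone is the third highest for Chac1, highest for Adamts3 and lowest for Lefty2.

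Thalidomide, whose phthalimide shares an isoindole skeleton with the isoindolinone of chlorthalidone, was given at 0.35 mM and not at 1 mM, so its values are only set beside those of chlorthalidone. Against DMSO, Chac1 was higher by 1.34 with chlorthalidone and by 0.07 with thalidomide. Adamts3 was higher by 1.03 with chlorthalidone and by 0.13 with thalidomide in the same probe set. Cirbp was higher by 0.36 with chlorthalidone and by 0.36 with thalidomide, where it was not called (adjusted p = 0.141). The DMSO mean of Cirbp, 9.41, stood near the low end of the groups. All of these values share the 3 DMSO arrays.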

How the data were processed

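The data are 60 Affymetrix mouse gene arrays of labelled cDNA from total RNA, 3 per group. The deposited log2 values were made by the authors with RMA, per the submitters' processing notes; the sources used here give neither its version nor its options. They were used as deposited. Of 35556 probe sets, 21789 with 1 gene symbol in the platform annotation (19938 symbols) were tested; 1621 with several symbols and 12146 not listed were kept for an alternative.

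A mean per group was fitted to all 60 arrays (limma 3.58.1, R 4.3.3, eBayes with 40 residual and 7.31 prior degrees of freedom). The contrasts were chlorthalidone minus DMSO, hydrochlorothiazide, topiramate and the mean of the other 18 compounds. The Benjamini-Hochberg adjustment ran over 21789 probe sets, and a probe set was called at an adjusted p under 0.05. The test was tried on simulated data. Alternatives were quantile normalisation, dim probe sets left out, all probe sets tested, the compared groups fitted alone, eBayes with trend and robust settings, each array's interquartile range as a covariate, and each array left out in turn. The arrays are called triplicates but not separate cultures, so p-values measure the spread between these arrays, and 3 arrays per group limit the precision. Scan dates and batches were not used here.

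The members of the 35 gene lists, the comparisons and the tests were chosen with earlier results of these data known. A gene was taken by its brightest probe set. Named genes are the 15 largest rises and 15 largest falls called with no overlap of arrays, the pharmacology genes, the 4 largest called members of each list (or 2 largest where none was called), the 6 largest differences in each direction of the other contrasts and the 5 genes most like Chac1; the text gives the leading ones and marks those chosen after their values were seen. Promoter windows are from RefSeq (GRCm38.p6); no array position is given.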

Additional observations from a re-analysis of the deposited data

Results flagged for a closer look

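Probe sets outside the 21789 with 1 symbol also carried signal. With the whole table fitted and adjusted together, 41 of the 12146 probe sets without an annotated gene were called between chlorthalidone and DMSO, 23 higher and 18 lower. Of the 1621 probe sets with several symbols, 20 were called, 5 higher and 15 lower. They cannot be assigned to a gene here and enter no count above.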

How the results depend on the processing

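None of the 72 named probe sets called against DMSO changed sign under the alternatives run. The other called probe sets were not checked for sign. The uncalled differences of Car9, Slc12a1 and Olfr1489, all near 0, took either sign when 1 array was left out. Of these 72, 45 stayed called under every alternative that tested them. The call was lost by 23 in at least 1 fit without an array and by 23 with the 6 arrays alone. The alternative that left out dim probe sets tested 80 named probe sets, called or not, and not the dim ones. Against DMSO, 936 probe sets were called after quantile normalisation, 861 with the interquartile range as a covariate, 194 with the 6 arrays alone and 319 to 436 without 1 array. Against hydrochlorothiazide, 126 were called with both groups alone, 431 with the covariate and 302 to 2898 without 1 array. Against topiramate, these were 1074 after quantile normalisation, 190 with both groups alone and 292 to 836 without 1 array, and against the mean of the other 18 compounds 326 to 484 without 1 array. Of the listed genes, 65 were called in the deposited values, 98 after quantile normalisation, 32 with the 6 arrays alone and 44 to 52 without 1 array. The causes were not tested. No paired analysis was possible because the labels give the replicates no numbers that link arrays of different groups.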

Other observations

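The genes in these paragraphs were chosen after their values were seen, so the counts are descriptions without a test. Of 82 further measured lysosomal genes, 19 rose with chlorthalidone against DMSO and none fell, with a median difference of 0.14 and 66 above 0. Over all probe sets tested 1.44% rose and 1.14% fell. Cd68, a membrane glycoprotein of lysosomes, rose by 0.49, the cystine exporter Ctns by 0.46 and Cln6 by 0.44. Slc38a7, an amino acid carrier of the lysosome, rose by 0.43 and had its highest mean of the 20 groups with chlorthalidone. In the same order from the highest mean, chlorthalidone ranked 4 for Cd68 and Ctns and 3 for Cln6.

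Of 12 genes of hexosamine and O-GlcNAc metabolism, 4 rose and 1 fell, against 1.44% and 1.14% of all probe sets. Renbp, which acts on N-acetylglucosamine, had 10.44, 10.62 and 10.53 with chlorthalidone, against 9.89, 9.90 and 9.97 with DMSO, a rise of 0.61. Uap1l1 rose by 0.60 and Amdhd2 by 0.32. Ogt, which adds O-GlcNAc to proteins, rose by 0.16 (limma, adjusted p = 0.038). Oga, which removes it, had 9.49, 9.58 and 9.61 with chlorthalidone, against 10.07, 9.91 and 10.09 with DMSO, a difference of -0.46, and its lowest mean of the 20 groups. Of 8 glucose-sensing arrestin genes and their regulators, 2 fell and none rose, with a median of -0.01 and 4 above 0. Those that fell were Txnip and Arrdc4, arrestins that restrain glucose uptake, by 0.38 and 0.29, and both had their lowest group mean with chlorthalidone.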
